A study of Caenorhabditis elegans with 2 samples.

Results

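Small nucleolar RNA (snoRNA) gene starts were examined for peaks of ZTF-28, a C. elegans protein named as a putative zinc finger transcription factor, tagged with GFP. A peak was taken as a member if its summit lay between 500 bp upstream and 200 bp downstream of the annotated start of a snoRNA gene, on the strand of that gene. By this rule 329 of 103094 ranked peaks were members, and 65 of them were among the 1086 peaks of the authors' conservative list, called reproducible here. The annotation holds 346 snoRNA genes, of which 268 had a ranked peak, 64 had a reproducible peak and 78 had no ranked peak in the window. A ranked peak is common at any gene: 45.5% of all annotated genes and 59.2% of protein-coding genes had one in the same window, beside 77.5% of the snoRNA genes (95% Wilson interval 72.8 to 81.5%).

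The study is a chromatin immunoprecipitation with sequencing (ChIP-seq) of 2 biological replicates, which form 1 group. Both came from whole young adult worms of strain RW12281, aged 63 h and synchronised by bleaching and starvation at the L1 larval stage. These worms carry the allele st12281[ztf-28::TY1::EGFP::3xFLAG] V, a CRISPR insertion of the tag into the ztf-28 gene, and chromatin was sonicated and precipitated with an anti-GFP antibody. No input or untagged library was analysed here, so no background level of the assay can be given beside the values. Whole animals were used, so strong occupancy in few cells and weak occupancy in many cannot be told apart.

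snoRNAs are short nuclear RNAs that guide the chemical modification of ribosomal and other RNAs, box C/D snoRNAs directing 2′-O-methylation and box H/ACA snoRNAs directing pseudouridylation. In animals many lie in introns of other genes and are processed from the spliced intron, while others are transcribed from promoters of their own. RNA polymerase III genes such as tRNA genes carry internal promoter elements named box A and box B, which the general factor TFIIIC binds.

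Each snoRNA gene was placed by its relation to protein-coding genes. There were 124 genes between protein-coding genes, 142 in an intron of a host gene on the same strand, 27 in an intron of a gene on the opposite strand and 53 touching a protein-coding exon. Of these places, only the same-strand introns are by definition read as introns of a host transcript. Positions are given from the snoRNA start, with negative values upstream.

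Sequences around strong summits of each place are shown. The strongest members between genes and touching an exon, F59C6.15 and F39B2.14, are not among them. Some sequences hold letters close to the tRNA box A and box B, or a second pair of words, just upstream of the snoRNA gene. Others do not. The box pair searched was TGGCNNAGT followed after 15 to 70 bases by GTTCGANNC, with at most 1 mismatch in each word. The upstream pair was CGGAACCCG followed after 3 to 7 bases by TGTCGGCCG, with at most 2 mismatches in each and 3 in all. Both were searched from 150 bp upstream to 80 bp downstream of each start, on the strand of the gene, with the other strand searched separately. These words were chosen after the upstream sequences of the members had been read, so their counts describe these genes and support nothing further. Each sequence is the 151 bp centred on the summit, on the strand of the snoRNA gene, from the RefSeq genome in build WBcel235, which has the ce11 coordinates. Capitals mark the matched words.
W03C9.9 (chrII:11960771-11960921, plus strand): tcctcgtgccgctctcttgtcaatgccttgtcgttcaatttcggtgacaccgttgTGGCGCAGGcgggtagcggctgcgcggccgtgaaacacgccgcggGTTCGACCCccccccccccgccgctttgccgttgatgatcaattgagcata
Y75B12B.12 (chrV:15191028-15191178, minus strand): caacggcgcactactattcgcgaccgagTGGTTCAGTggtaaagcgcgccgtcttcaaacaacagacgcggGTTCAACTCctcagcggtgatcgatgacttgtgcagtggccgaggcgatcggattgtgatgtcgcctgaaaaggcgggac
F11A10.9 (chrIV:12086602-12086752, plus strand): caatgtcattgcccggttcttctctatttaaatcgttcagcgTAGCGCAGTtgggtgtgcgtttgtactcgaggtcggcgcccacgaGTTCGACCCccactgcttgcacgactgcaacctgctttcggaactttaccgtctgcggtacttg
C27H6.5 (chrV:9970224-9970374, minus strand): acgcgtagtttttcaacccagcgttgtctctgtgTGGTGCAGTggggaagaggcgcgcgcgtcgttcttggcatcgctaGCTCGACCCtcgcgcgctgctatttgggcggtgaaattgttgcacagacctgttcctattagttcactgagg
T03F7.8 (chrV:11314131-11314281, plus strand): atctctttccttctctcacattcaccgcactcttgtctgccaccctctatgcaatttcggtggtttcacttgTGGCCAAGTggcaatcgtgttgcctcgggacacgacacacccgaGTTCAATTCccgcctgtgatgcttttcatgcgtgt
ZK994.7 (chrV:8500477-8500627, plus strand): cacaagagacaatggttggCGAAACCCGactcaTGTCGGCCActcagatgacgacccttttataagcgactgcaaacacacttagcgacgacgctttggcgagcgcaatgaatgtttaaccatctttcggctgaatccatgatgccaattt
Y55F3BR.9 (chrIV:867085-867235, minus strand): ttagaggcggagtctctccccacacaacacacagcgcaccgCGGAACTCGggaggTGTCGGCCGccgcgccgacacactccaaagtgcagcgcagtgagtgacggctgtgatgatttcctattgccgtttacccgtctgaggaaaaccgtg
C51F7.3 (chrV:12303584-12303734, plus strand): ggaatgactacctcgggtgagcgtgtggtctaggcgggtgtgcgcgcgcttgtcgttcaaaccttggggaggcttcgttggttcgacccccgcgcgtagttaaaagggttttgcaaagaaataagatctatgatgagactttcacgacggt
T04A8.17 (chrIII:4689678-4689828, minus strand): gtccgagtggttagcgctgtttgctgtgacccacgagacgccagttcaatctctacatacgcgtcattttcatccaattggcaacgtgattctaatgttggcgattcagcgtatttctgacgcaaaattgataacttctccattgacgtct
K07C10.2 (chrII:11167240-11167390, plus strand): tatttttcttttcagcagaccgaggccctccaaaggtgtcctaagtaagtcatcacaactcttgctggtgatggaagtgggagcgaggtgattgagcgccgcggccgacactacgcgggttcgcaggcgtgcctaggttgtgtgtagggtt
F20D12.10 (chrIV:7948408-7948558, minus strand): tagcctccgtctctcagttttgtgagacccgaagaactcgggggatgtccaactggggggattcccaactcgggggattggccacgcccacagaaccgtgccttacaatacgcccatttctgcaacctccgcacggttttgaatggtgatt
The first 5 sequences hold the box pair and the next 2 the upstream pair. C51F7.3 and T04A8.17 hold neither by these rules, and both matched the box pair when up to 2 mismatches in each word and 3 in all were allowed. K07C10.2, between genes, and F20D12.10, touching an exon, matched neither pair near the gene start, nor the box pair under the looser limit. That search did not cover all letters printed for them. The printed stretch of K07C10.2 runs from 23 to 173 bp, mostly beyond the searched window. That of F20D12.10 runs from −387 to −237 bp, wholly outside it. F11A10.9 and C27H6.5 were added after their values were seen, as the strongest same-strand intron members with the box pair, so the share of matches among these 11 sequences does not describe the members.

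Reproducible peaks were found at snoRNA genes in every place. Between genes, 24 of 124 snoRNA genes had one, a share of 19.4% (95% Wilson interval 13.4 to 27.2%). In same-strand introns the count was 24 of 142, or 16.9% (11.6 to 23.9%), and in opposite-strand introns it was 8 of 27, or 29.6% (15.8 to 48.5%). Of the genes touching an exon, 8 of 53 had one, or 15.1% (7.85 to 27.05%). Among these, C51F7.4 was counted through a summit nearer to C51F7.3, which is counted under same-strand introns. By nearest start, 7 reproducible peaks belong to genes touching an exon. The intervals of all 4 places overlap, and no test between places was made because genes are not replicates. Over all 346 genes the share was 18.5% (14.8 to 22.9%), where 2.4% of all 46890 annotated genes and 2.76% of the 19973 protein-coding genes had a reproducible summit in the same kind of window. Such peaks were not particular to snoRNA genes among small RNA genes. The same window held 176 reproducible peaks at 612 tRNA genes and 19 at 129 snRNA genes. Counted over peaks, 65 of the 329 ranked members were reproducible, 19.8% (15.8 to 24.4%), against 1.05% of all ranked peaks. The shares fell with 1 library: in the list of replicate 1 alone they were 10.5% between genes, 9.86% in same-strand introns and 22.2% in opposite-strand introns, and in that of replicate 2 alone 13.7%, 10.6% and 18.5%. At an irreproducible discovery rate (IDR) of at most 0.001 they were 10.5%, 8.45% and 14.8%. The IDR is the authors' measure of reproducibility, low where a peak ranks high in both replicates. Of all reproducible peaks, 28.8% overlapped the list of replicate 1, 34.4% that of replicate 2, and 27.7% reached that IDR. The share of all annotated genes in these lists is not given here, so the 2.4% does not apply to them. Intervals cover counting error only.

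The strongest member lay between genes. F59C6.15 had a pooled signal of 410.1 on the authors' scale, with replicate values of 203.4 and 206.9 and a summit 50 bp upstream of the gene. W03C9.9 followed at 271.6, with 104.9 and 161.4, its summit 52 bp upstream and inside its box pair. Y23H5B.10 had 200.5 (112.4 and 82.8), Y75B12B.12 188.0 (78.1 and 106.8) and T19B4.8 181.4 (86.7 and 91.7). Neither replicate was the higher one throughout these genes, so the order of Y23H5B.10 and Y75B12B.12 differs between the replicates. ZK265.10 at 179.5, Y74C9A.6 at 165.4 and Y39G10AR.24 at 148.4 complete the 8 strongest genes between genes. The summit of Y74C9A.6 lay 1 bp downstream of its start.

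Members in same-strand introns reached similar values. ZK994.7, inside pxn-1 (a peroxidasin, an extracellular matrix enzyme), had a pooled signal of 305.5 with 153.9 and 148.3 in the replicates, 27 bp upstream of the snoRNA start. C51F7.3, inside frm-7, had 257.1 with 126.3 and 132.5, 49 bp upstream, and the same summit lay 60 bp downstream of the start of a second snoRNA gene, C51F7.4. C10C6.8, inside the cation-transporting ATPase gene catp-8, had 197.0 with 81.0 and 113.6. F11A10.9 in rbm-34 had 186.3 (97.7 and 79.3), and C27H6.5 in unc-41, which encodes a stonin-like protein of synaptic vesicle recycling, had 172.8 (63.4 and 103.5). Y37E3.20 in pcyt-2.1 at 170.2 and C16D9.11 in rol-3 at 161.8 were the last of the 8. The summit of Y37E3.20 also lay in the start window of its host pcyt-2.1, at −392 bp. Each of these 7 genes had at least 63.4 in both replicates. The 264 ranked members that were not reproducible had medians of 14.8 and 17.2 and reached at most 58.8 and 57.5. This gap is partly fixed by the choice, since reproducible peaks were selected on high ranks in both replicates.

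The remaining gene of that 8, Y24D9A.9, had 224.2 with 104.0 and 117.7. Its summit lay at −323 bp from the snoRNA but at −41 bp from its host rpl-7A, a ribosomal protein gene. The annotation has 23 snoRNA genes inside ribosomal protein genes, and 3 had a reproducible peak. Besides Y24D9A.9 these were R151.11 in rpl-6 and F54E7.10 in rps-12. The summit of R151.11 lay at −499 bp from the snoRNA and −333 bp from rpl-6, and that of F54E7.10 at −287 bp from the snoRNA and −86 bp from ska-3. All 3 summits therefore lay in the start window of a protein-coding gene, and which gene the signal belongs to cannot be told apart.

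All 8 reproducible members in opposite-strand introns lay outside protein-coding start windows. Y55F3BR.9 had a pooled signal of 194.2 (82.3 and 112.4 in the replicates) and T03F7.8, in the cuticlin-like gene cutl-18, had 192.3 (92.1 and 98.7). ZK484.9, in the half-type ABC transporter gene haf-9, had 178.7 (85.9 and 92.2) and T04A8.17, in ppat-1, had 164.6 (100.7 and 77.5). The other 4 were lower, B0334.12 at 119.0, C27H5.9 at 105.6, R08C7.19 at 97.8 and ZK185.9 at 88.7. Of the members touching an exon, F39B2.14 at 215.8 lay 131 bp upstream of the snoRNA and 70 bp upstream of tmem-107, while T02E1.9 at 205.6 lay 32 bp upstream of the snoRNA. T27A3.9 at 146.0, F20D12.10 at 120.8, ZK546.18 at 97.9, F58D5.12 at 92.8 and C14C10.8 at 86.9 make up the rest. The summit of F20D12.10 stood in sequence that is repeated in the genome, with 76.7% of its 36-letter words found elsewhere, and it was the only member with more than 20.7%.

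**Figure D1:**
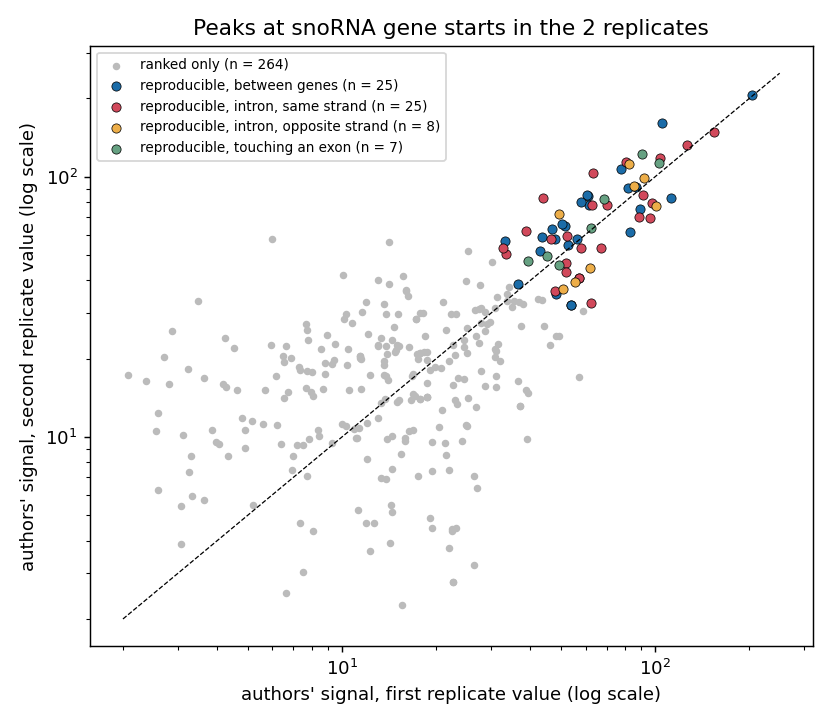
Signal of each member in the first and second replicate (both axes logarithmic, authors' units), coloured by the place of the snoRNA gene for the 65 reproducible peaks and grey for the 264 that were ranked only; the dashed line marks equal values. The reproducible peaks lie at or above 32.1 in both replicates and the ranges of the 4 places overlap.

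The levels of the 4 places overlapped. The median pooled signal was 120.1 between genes (quartiles 103.1 to 165.4), 119.0 in same-strand introns (94.7 to 170.2), 141.8 in opposite-strand introns (103.6 to 182.1) and 120.8 for those touching an exon. The quartiles overlap, and the highest of these medians rests on 8 peaks. Over all 65 members the median was 120.1, beside 94.8 for all 1086 reproducible peaks, 96.0 at tRNA genes and 113.9 at small nuclear RNA (snRNA) genes. Of the 100 reproducible peaks with the highest signal, 9.21% of the list, 16 were at snoRNA starts.

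The plot of the replicate values sets the 2 libraries side by side at the members. Reproducible peaks were selected on the IDR, that is, on high and similar ranks in both replicates. Agreement among them is thus partly fixed by that choice and does not measure how far the libraries agree. Of the 65 reproducible members, 2 were secondary summits that carry the replicate values of a stronger one, at 134 bp from F19H8.6 and −223 bp from T26A8.6, with pooled signals of 9.73 and 5.30. Among the other 63, the first value was the higher in 22, and the median log2 ratio of second to first was 0.13 (range −0.93 to 0.91). Across these 63 peaks, which share both libraries, Pearson's r of the log2 values was 0.745 and Spearman's rho 0.709, beside 0.693 and 0.417 for the 1021 other reproducible peaks. In the lists called from 1 replicate alone, 39 of the 65 members were found in replicate 1 and 40 in replicate 2, and 30 were in both. These shares compare with 28.8% and 34.4% of all reproducible peaks. An IDR of at most 0.001 was reached by 33 members and by 27.7% of all reproducible peaks.

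Summits concentrated in a narrow band upstream of the snoRNA. Of the 65 reproducible members, 52 had the summit upstream of the start, and 36 lay 20 to 70 bp upstream, a share of 55.4% against 10.2% at tRNA genes, 10.5% at snRNA genes and 11.6% at protein-coding genes. The median position was −38 bp at snoRNA genes, 17.5 bp at tRNA genes, 15 bp at snRNA genes and −178 bp at protein-coding genes. By place, the median was −40 bp between genes, −41 bp in same-strand introns and −32 bp for those touching an exon. In opposite-strand introns it was −4.5 bp, with 8 summits spread from −75 to 126 bp, and it was 1.5 bp for the 6 peaks called without replicate 2. The 264 members that were ranked only had a median of −103.5 bp and quartiles of −274.5 and 38.2 bp, so they were spread over the window.

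**Figure D2:**
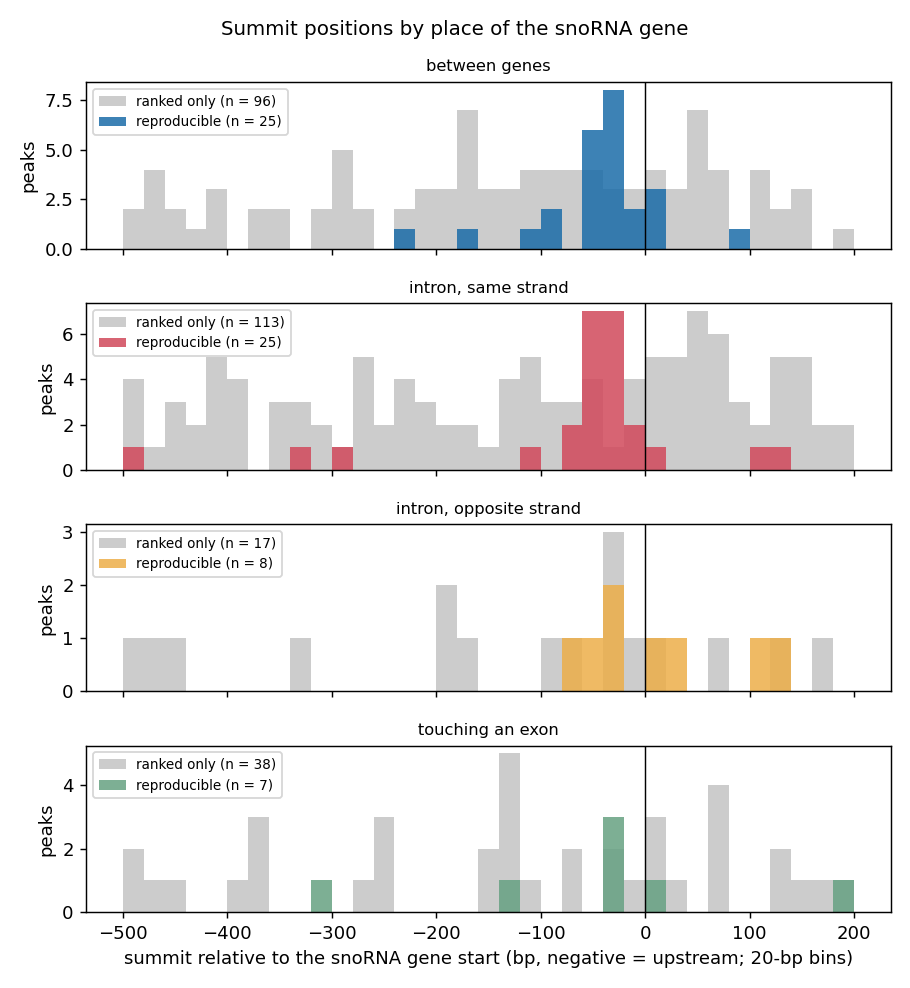
Distance of each member's summit from the snoRNA gene start in 20-bp bins (x axis, bp, negative upstream; y axis, number of peaks, with its own scale in each panel), in one panel per place, coloured for reproducible and grey for ranked-only peaks. The reproducible peaks between genes and in same-strand introns gather just upstream of the start, with medians of −40 and −41 bp, while the ranked-only peaks spread over the window.

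Most reproducible members lay outside the start windows of protein-coding genes. Of the 25 reproducible peaks in same-strand introns, 8 also lay in a protein-coding start window, as did 6 of 25 between genes, 0 of 8 in opposite-strand introns and 3 of 7 touching an exon. The 17 same-strand intron peaks outside such windows had a median signal of 119.0, and the 8 inside had 123.2. Between genes the medians were 143.0 for 19 peaks outside and 112.8 for 6 inside. Leaving out all summits in protein-coding windows lowered the share of same-strand intron genes from 16.9% to 11.27%, 16 of 142 genes.

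The box pair was found upstream of 24 of the 64 snoRNA genes with a reproducible peak, 37.5% (26.7 to 49.8%). It was found at 14 of the 282 others, 4.96% (2.98 to 8.16%). The same search gave 76.5% of 612 tRNA genes, 0 of 129 snRNA genes and 0.686% of protein-coding genes. The upstream pair was found at 14 of the 64 genes, 21.9% (13.5 to 33.4%), and at 19 of the 282 others, 6.74% (4.36 to 10.3%). It was also found at 12 of 129 snRNA genes, at 1 tRNA gene and at 0.0701% of protein-coding genes. On the opposite strand neither pair was found at any of the 64. A match of letters is a description, not a binding site.

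**Figure D3:**
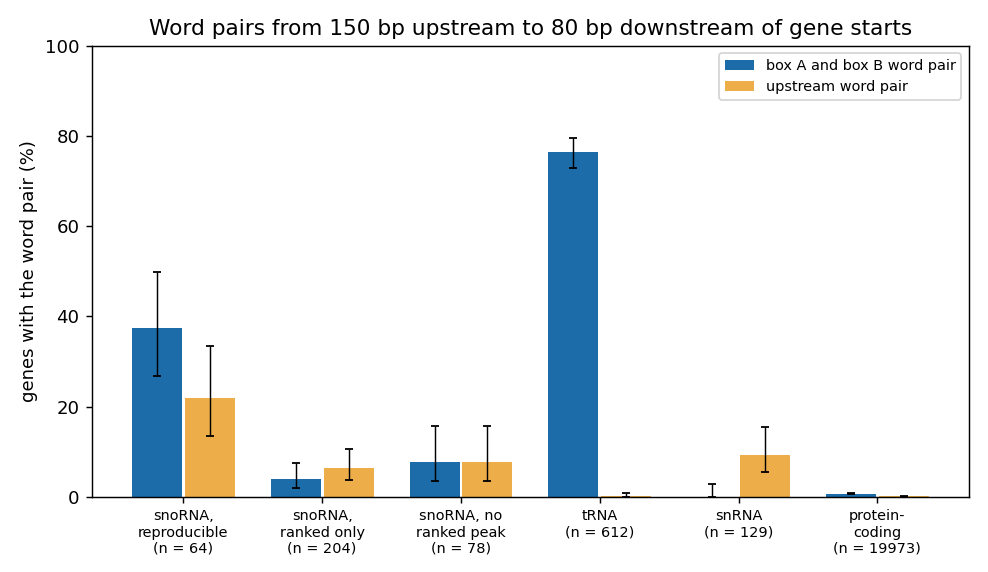
Share of genes (y axis, %) with the box pair or the upstream pair between 150 bp upstream and 80 bp downstream of the start, for snoRNA genes with a reproducible peak, with a ranked peak only and with none, and for all tRNA, snRNA and protein-coding genes; bars are shares and whiskers 95% Wilson intervals. The snoRNA genes with a reproducible peak stand at 37.5% and 21.9%, and the other snoRNA genes at or below 7.69%.

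Read the other way, most snoRNA genes with a box pair had a reproducible peak. The count was 24 of 37 genes with only the box pair, 64.9% (48.8 to 78.2%), 14 of 32 with only the upstream pair, 43.8% (28.2 to 60.7%), and 26 of 276 with neither, 9.42% (6.51 to 13.4%). The 1 gene with both pairs had no ranked peak. In same-strand introns the counts were 12 of 17, 6 of 10 and 6 of 115, so that 5.22% (2.41 to 10.9%) of the intron genes without either pair had a peak. Between genes they were 8 of 14, 7 of 16 and 9 of 93. Of the 26 genes with a peak and neither pair, 9 matched the box pair under the looser limit of 2 mismatches a word and 3 in all, as did 45 of the 250 without a peak and with neither. In opposite-strand introns the counts were 3 of 5, 1 of 6 and 4 of 16, with wide intervals that overlap. The words were chosen after the upstream sequences of the members had been read. A higher share at genes with a pair is thus partly built in, in every place, and these shares are descriptions.

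**Figure D4:**
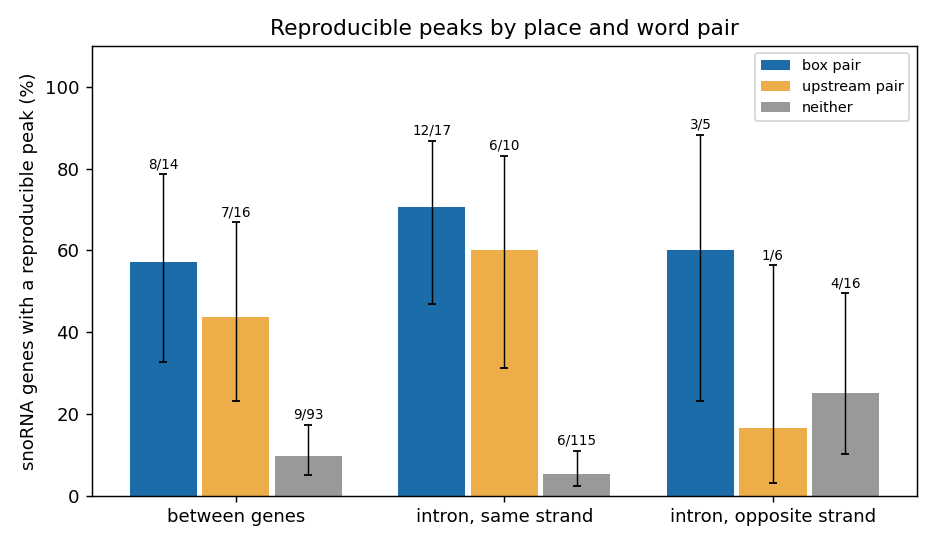
Share of snoRNA genes with a reproducible peak (y axis, %) by place and by the word pair upstream, with 95% Wilson intervals as whiskers and the counts above them; the genes touching an exon, of which 1 holds a box pair, are not drawn. In same-strand introns 12 of 17 genes with the box pair and 6 of 115 with neither pair had a peak.

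The box words stood at similar distances before the snoRNA. In the 24 genes the box A word began at a median of 57.5 bp upstream of the start (range −72 to −45 bp) and the box B word at 14 bp upstream (−27 to −5 bp). The gap between the words had a median of 35.5 bases (quartiles 35 to 36), and for the 135 reproducible peaks whose nearest tRNA gene holds the box pair it was 36 bases (35 to 44). There the box A word began at a median of 7 bp inside the tRNA gene, so the pair lies upstream of the mature RNA in the snoRNA genes and inside it in the tRNA genes. The summit fell between the first base of box A and the last of box B in 19 of the 24 snoRNA genes, 79.2% (59.5 to 90.8%), and in 80 of the 135 tRNA peaks, 59.3% (50.8 to 67.2%). The first upstream word began at a median of 61.5 bp upstream of the start in its 14 genes (−83 to −60 bp), and the summit lay a median of 29 bp after it.

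**Figure D5:**
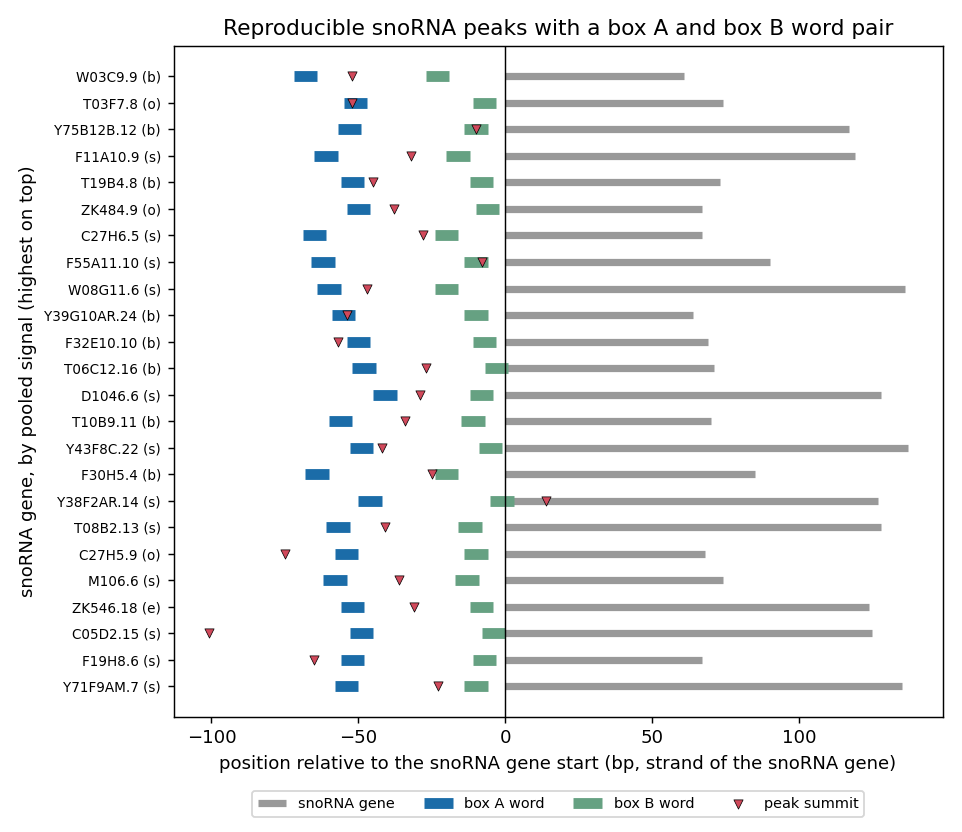
Positions of the box A word (blue), box B word (green), summit (red triangle) and snoRNA gene (grey bar) relative to the snoRNA gene start (x axis, bp) for the 24 genes with a reproducible peak and a box pair, 1 row a gene, ordered by pooled signal with the highest on top; letters give the place (b between genes, s same-strand intron, o opposite-strand intron, e touching an exon). The box A words begin between −72 and −45 bp, and 19 of the 24 summits lie within the pair.

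Genes with and without a pair had signals of similar size. The median pooled signal was 142.6 for the 24 peaks with the box pair (range 73.9 to 271.6), 138.2 for the 14 with the upstream pair (80.2 to 410.1) and 115.5 for the 25 with neither (78.2 to 257.1). Of the 25 with neither, 10 lay in a protein-coding start window, against 4 of 24 and 3 of 14. Their summits ranged from −499 to 180 bp, and those of the box pair members from −101 to 14 bp.

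A run of at least 4 T, the letters at which RNA polymerase III is known to terminate, followed within 30 bp of the end of 22 of the 24 genes with a box pair and a reproducible peak. It followed 12 of the 14 with the upstream pair and 17 of the 26 with neither. Among genes without a reproducible peak it followed 10 of 13 with the box pair, 76.9% (49.7 to 91.8%), and 11 of 18 with the upstream pair, 61.1% (38.6 to 79.7%), so it was frequent beside the words with and without a peak. The share was 44.0% (38.0 to 50.2%) among the 250 snoRNA genes with neither pair and no reproducible peak, 98.9% at tRNA genes and 49.4% at protein-coding genes. The 24 genes were short, with a median length of 80.5 bp beside 130 bp over all 346.

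None of the 38 snoRNA genes with a box pair, the one with both pairs included, had its words over an annotated tRNA gene. At 9 of them the words lay over another annotated noncoding gene, pseudogenes included. At 4 of these 9 it was a tRNA pseudogene of the same strand, at D1046.6, F19H8.6, T08B2.13 and Y59E1B.14. The first 3 of these 4 had a reproducible peak, with pooled signals of 142.2, 93.7 and 109.2. At F55A11.10, T03F7.8, K11C4.6, ZK484.9 and C05D2.15 it was a noncoding RNA gene, on the same strand at ZK484.9 and C05D2.15. The words of D1046.6 and T08B2.13 also lay over such a gene.

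By chromosome, reproducible peaks were found at 17 of 74 snoRNA genes on I, 12 of 71 on II, 5 of 54 on III, 16 of 59 on IV and 14 of 55 on V. The shares were 23.0%, 16.9%, 9.26%, 27.1% and 25.5%, beside 4.80%, 3.92%, 5.03%, 1.03% and 2.08% of all annotated genes on the same chromosomes. Chromosome IV has 19704 annotated genes, against 3859 to 7870 on the others. On IV 203 genes of any class had a reproducible summit, and on I 202 of 4204 did. The 1.03% on IV therefore rests on a larger number of annotated genes, not on fewer genes with a peak than on I. On X reproducible peaks were found at 0 of 33 snoRNA genes, with a Wilson interval that reaches 10.4% and so includes the 2.64% of all genes on X. The interval on X overlaps those of snoRNA genes on II (9.94 to 27.3%) and III (4.02 to 19.9%). The intervals on I, IV and V begin above it, at 14.9%, 17.4% and 15.8%. No test between chromosomes was made. On X 2 snoRNA genes held the box pair and 1 the upstream pair. Of these 33 genes, 19 had a ranked peak. The strongest ranked member on X, C53B7.8, had 90.3 with 58.8 and 30.6 in the replicates and an IDR of 0.0115. It was the strongest member between genes that was not reproducible. In the other places these were T06D8.11 at 76.5, F21F12.3 at 75.3 and Y65B4A.11 at 75.4.

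The limits of the rule were set on position and on the IDR. R151.11, at −499 bp, was just inside the upstream edge, while C06A1.9, a same-strand intron gene, had a reproducible peak of 262.5 (127.1 and 135.1) at −506 bp and was left out. Just outside among ranked peaks was W03B1.17 at −504 bp with 24.3. Downstream, F37A8.7 at 197 bp with 60.3 was ranked only and F58D5.12 at 180 bp was the last reproducible one inside, with Y55F3BL.5 at 205 bp and T23G5.7 at 568 bp outside. On the IDR, F28D9.6 was inside at 0.00963 with a signal of 78.2 and ZK643.9 outside at 0.0103 with 68.7.

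Genes of the proteins that form snoRNA particles also had signal at their starts. All 8 listed had a ranked peak and 3 had a reproducible one in the window of any of their transcript starts, where 62.7% and 2.99% of all protein-coding genes did. The list was chosen by hand and is short. fib-1, which encodes fibrillarin, the 2′-O-methyltransferase of box C/D particles, had 193.5 (81.8 and 105.4) at 97 bp upstream. nol-58, a core box C/D protein, had 94.5 (49.6 and 45.0), and Y48A6B.3, a homologue of the box H/ACA protein NHP2, had 89.9 (37.2 and 52.2). The other 5 were not reproducible, with dkc-1, the pseudouridine synthase of box H/ACA particles, at 90.1 (22.8 and 63.2) and nola-3, snu-13, nol-56 and garr-1 at 69.1, 51.2, 41.8 and 40.7.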

How the data were processed

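The labels give 2 anti-GFP ChIP-seq libraries of 1 group, in assembly ce11. Neither aligner nor peak caller nor read depth is given in the sources used here. The authors deposited ranked and IDR-thresholded peak lists, for each replicate alone and for the comparison of both. Each peak has the authors' own signal value, whose scale is not given and which was used only within a list, a deposited score that is a scaled IDR, and, in the ranked list, the −log10 of the global IDR as deposited. The ranked list gives a pooled signal and 1 value for each of 2 unnamed replicates, called first and second. The first equals the signal in the list of replicate 1 at 64 of 65 members, and the second that of replicate 2 at all 65. A peak was reproducible if it was in the conservative list. Overlap with a replicate's own list was at least 1 bp.

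Starts came from Ensembl release 115, names from RefSeq by WormBase identifier for all 346 snoRNA genes. Each peak was given to the nearest snoRNA start. Shares have 95% Wilson intervals. With 1 group and 2 replicates no test was made. Up to 8 genes of highest signal per place, the strongest not reproducible, those at the window edges and 8 snoRNA particle protein genes were named. Sequences shown are those of the 3 strongest per place among chromosomes printed here, without 3 over an annotated UTR, and 2 added later. The members, lists and words were chosen with earlier results of these data known. Python 3.11.15, NumPy 2.4.6, pandas 2.3.3 and SciPy 1.17.1 were used, and the assignment and word search were tested on simulated data. Alternatives were other windows, a stricter IDR, each replicate alone, the optimal list, no protein-coding windows, no secondary peaks and other mismatch limits.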

Additional observations from a re-analysis of the deposited data

How the results depend on the processing

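Of 105 alternative values for 12 results, 88 stayed within the spread of the first value, 16 moved and 1 changed sign. An IDR of at most 0.001 lowered the share of genes with a peak to 10.5% between genes, 8.45% in same-strand introns and 14.8% in opposite-strand introns, and raised the median signal to 165.4 and 171.5 in the first 2 places, since it removes the weaker peaks. Without summits in protein-coding start windows the same-strand intron share was 11.27%. The share of ranked peaks between genes that were reproducible was 29.1% in a window of 250 bp upstream to 100 bp downstream and 13.2% with 1000 bp upstream. Without replicate 1 or without replicate 2, using the list of the other alone, the share ranged from 10.5 to 13.7% between genes, from 9.86 to 10.6% in same-strand introns and from 18.5 to 22.2% in opposite-strand introns. The median signal, then on the scale of 1 library, ranged from 79.8 to 82.0, from 79.3 to 81.0 and from 84.1 to 92.2, and the median position in opposite-strand introns from −24 to 1.5 bp. With at most 1 mismatch over both words the box pair was found at 18 of 64 reproducible and 7 of 282 other snoRNA genes. With 2 a word and 3 in all it was found at 36 and 62, and at 9.83% of protein-coding genes. The share of all annotated genes with a peak is not given for the lists of 1 replicate or at the stricter IDR. No paired analysis was possible because there is 1 group. Read depth is unknown, so the limit it sets on weak peaks cannot be given.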

Other observations

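The same word pairs were counted within 100 bp of every reproducible summit, on both strands. The box pair stood at 71.0% of the 176 summits in tRNA start windows, at 24 of 65 in snoRNA windows, at 11 of 428 in windows of protein-coding genes alone and at 27 of 398 in no such window, which is 6.78% (4.70 to 9.69%). Among 101227 ranked peaks outside tRNA, snoRNA and snRNA windows that were not reproducible it stood at 2.03%. The strongest of the 27 had a pooled signal of 228.4, with 136.7 and 89.7 in the replicates, and it lay at −3963 bp (upstream) from the nearest gene start, that of M01A12.4. The upstream pair stood at 17 of the 398 summits in no such window, 4.27%, and at 0.566% of those ranked peaks. Whether small RNAs are made from these places was not tested.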
